A study of Homo sapiens with 6 samples.

Results

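Genes of cholesterol and fatty acid synthesis that are linked to SREBP, the sterol-regulated transcription factor family, were followed in H460 cells, an established line from a human large-cell lung cancer that carries mutant KEAP1. The 39 members were named genes, found by symbol in the deposited counts, and all 39 were present among 24462 counted symbols. They fall into a sterol arm of 18 enzymes, 6 genes that control SREBP or carry sterol, and a fatty acid arm of 15 enzymes. The depleted group held 3 libraries of cells that spent 24 h in RPMI medium lacking glutamine, supplemented with dialyzed serum, and the replete group held 3 libraries of cells with glutamine. The labels give no other treatment or genotype. Whether each library came from its own culture is not stated, so the p-values reflect variation among these libraries that may be technical. The labels leave unstated which serum the replete cells received, so a change of serum and the loss of glutamine cannot be told apart. RNA was read from its polyadenylated end by QuantSeq 3′ sequencing, at 8667798 to 10914899 counts per depleted library and 7550849 to 9028230 per replete library.

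The 8 genes chosen as marks of H460 summed to 3232 to 3553 CPM (counts relative to the library total) in depleted and 6668 to 6708 CPM in replete libraries. Of these genes 6 could be tested, and 4 of the 6 (66.7%) were called lower by more than 2-fold, beside 23.7% of all genes, with 0 called higher. The epithelial genes EPCAM and CDH1 were near 0, with at most 4 counts and 1 count in a library. Genes of blood and endothelium summed to at most 0.461 CPM in depleted and 0.884 CPM in replete libraries, with VWF and CDH5 at 0. The 6 fibroblast genes summed to 38.8 to 115 CPM in depleted and 28.5 to 41.8 CPM in replete libraries, and COL1A1 stood at 56.5 CPM in depleted replicate 3, against 6.19 to 7.51 CPM in the other two depleted libraries and 3.43 to 13.4 CPM in replete libraries. Their part in the results was not tested. Depleted replicate 2 stood apart from the other libraries on the second principal component (3.80% of the variance). It was the lowest of the 3 depleted libraries for 14 members and the highest for 18, and for 38.9% and 40.6% of all tested genes. In such bulk samples, fewer cells of a type and less RNA per cell cannot be told apart.

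SREBP proteins are made as precursors in the endoplasmic reticulum, where SCAP escorts them and INSIG proteins hold them back when sterol is plentiful. When sterol runs low, the precursor travels to the Golgi, is cut by proteases, and its freed part binds sterol regulatory elements in target promoters, usually together with the CCAAT-binding factor NF-Y. SREBF2 is known mainly for the sterol genes and SREBF1 for the fatty acid genes, and many targets, INSIG1 and the SREBF genes among them, feed back on the system. Both arms start from cytosolic acetyl-CoA, which ACLY makes from citrate, and in proliferating cells part of that citrate comes from glutamine.

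Promoter sequences from RefSeq (GRCh38.p14) are shown for a member that fell and carries the sterol element, for a sterol enzyme with a looser form of it, and for the members with the steepest rise and the steepest fall outside the fatty acid arm. Each window runs from 250 bases before to 50 after an annotated start, 5′ to 3′ in the direction of the gene, and capitals mark matches to TCACNCNAC or CCAAT on either strand. The build differs from that of the counts (hg19), so these positions serve the sequences only.
SREBF2, chr22:41832855-41833154 on the plus strand: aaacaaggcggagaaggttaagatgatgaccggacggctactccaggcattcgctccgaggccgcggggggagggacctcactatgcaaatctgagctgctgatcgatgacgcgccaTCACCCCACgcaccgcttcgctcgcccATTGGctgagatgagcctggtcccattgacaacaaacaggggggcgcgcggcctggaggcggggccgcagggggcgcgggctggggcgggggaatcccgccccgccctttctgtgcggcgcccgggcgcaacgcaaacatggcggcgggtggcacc
FDPS, chr1:155308616-155308915 on the plus strand: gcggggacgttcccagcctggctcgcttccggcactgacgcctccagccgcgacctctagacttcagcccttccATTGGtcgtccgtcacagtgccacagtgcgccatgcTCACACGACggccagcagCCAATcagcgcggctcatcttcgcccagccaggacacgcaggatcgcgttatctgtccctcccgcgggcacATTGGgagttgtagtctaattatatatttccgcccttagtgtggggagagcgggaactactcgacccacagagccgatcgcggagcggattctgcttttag
HMGCS1, chr5:43313363-43313662 on the minus strand: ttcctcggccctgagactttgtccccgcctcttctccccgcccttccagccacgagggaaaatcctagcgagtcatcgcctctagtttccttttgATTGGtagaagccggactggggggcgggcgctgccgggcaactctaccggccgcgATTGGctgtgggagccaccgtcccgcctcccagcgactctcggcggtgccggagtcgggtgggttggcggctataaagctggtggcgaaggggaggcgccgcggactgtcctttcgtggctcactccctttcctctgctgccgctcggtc
INSIG1, chr7:155297628-155297927 on the plus strand: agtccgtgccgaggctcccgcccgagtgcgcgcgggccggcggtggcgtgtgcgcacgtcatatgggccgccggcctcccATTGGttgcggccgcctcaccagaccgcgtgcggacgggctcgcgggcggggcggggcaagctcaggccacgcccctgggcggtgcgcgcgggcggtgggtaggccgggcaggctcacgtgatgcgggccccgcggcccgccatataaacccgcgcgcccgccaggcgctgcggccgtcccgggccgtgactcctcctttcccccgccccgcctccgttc

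In the SREBF2 window the sterol element TCACCCCAC begins at position −133 from the start and a CCAAT box on the other strand follows it. The FDPS window holds TCACACGAC at −140 with a CCAAT box downstream and 2 more on the other strand. Neither form of the element occurs in the HMGCS1 and INSIG1 windows shown, which says only that these letters are not in these windows. HMGCS1 has 2 CCAAT boxes on the other strand, with leftmost bases at −155 and −100, and INSIG1 has 1 at −170.

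Windows were found for 35 of the 39 members, 52 windows in all, and those of FASN, ACAT2, FDFT1 and SQLE were not used here. The strict element TCACNCCAC, searched on both strands, was in 2 member windows (3.85%), of SREBF2 and ACSL1, and in 1.06% of the 13925 windows of tested genes. The looser form TCACNCNAC, which includes every match of the strict one, was in 6 member windows (11.5%), of SREBF2, ACSL1, ACSS2, FADS2, FDPS and HSD17B7, and in 2.36% of the windows of tested genes. CCAAT was in 15 of 20 sterol arm windows (75.0%) and in 12 of 25 fatty acid arm windows (48.0%), beside 34.7% of the windows of tested genes. The GC box GGGCGG was in 43 member windows (82.7%), beside 65.3%, and the E-box CACGTG in 6 (11.5%), beside 9.36%. HMGCS1, SC5D, STARD4 and ELOVL1, the members that rose, all had a CCAAT box in at least 1 window, so a CCAAT box did not set them apart from MSMO1, SCD or INSIG1, which fell. Such matches are descriptions of letters and not of bound sites.

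Most members fell without glutamine. In edgeR's quasi-likelihood test, 29 of 39 passed an adjusted p of 0.05 as lower, 4 as higher and 6 did not pass, and all 39 passed the filter on low counts. Over all 12739 genes tested, 39.4% were lower and 39.1% higher, 78.6% in either direction. A fall of more than 2-fold was called for 17 members (43.6%), beside 23.7% of all genes, and a rise of more than 2-fold for 1 member, HMGCS1, beside 21.8%. The CPM of the groups did not overlap for 36 members (92.3%), beside 81.0% of all genes. The median log2 fold change of the members was −0.91, beside −0.02 over all genes. Without depleted replicate 2, 4 members were higher and 30 lower. All log2 fold changes are relative to trimmed-mean scaling, and with library totals alone the median gene lies at −0.25.

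**Figure D1:**
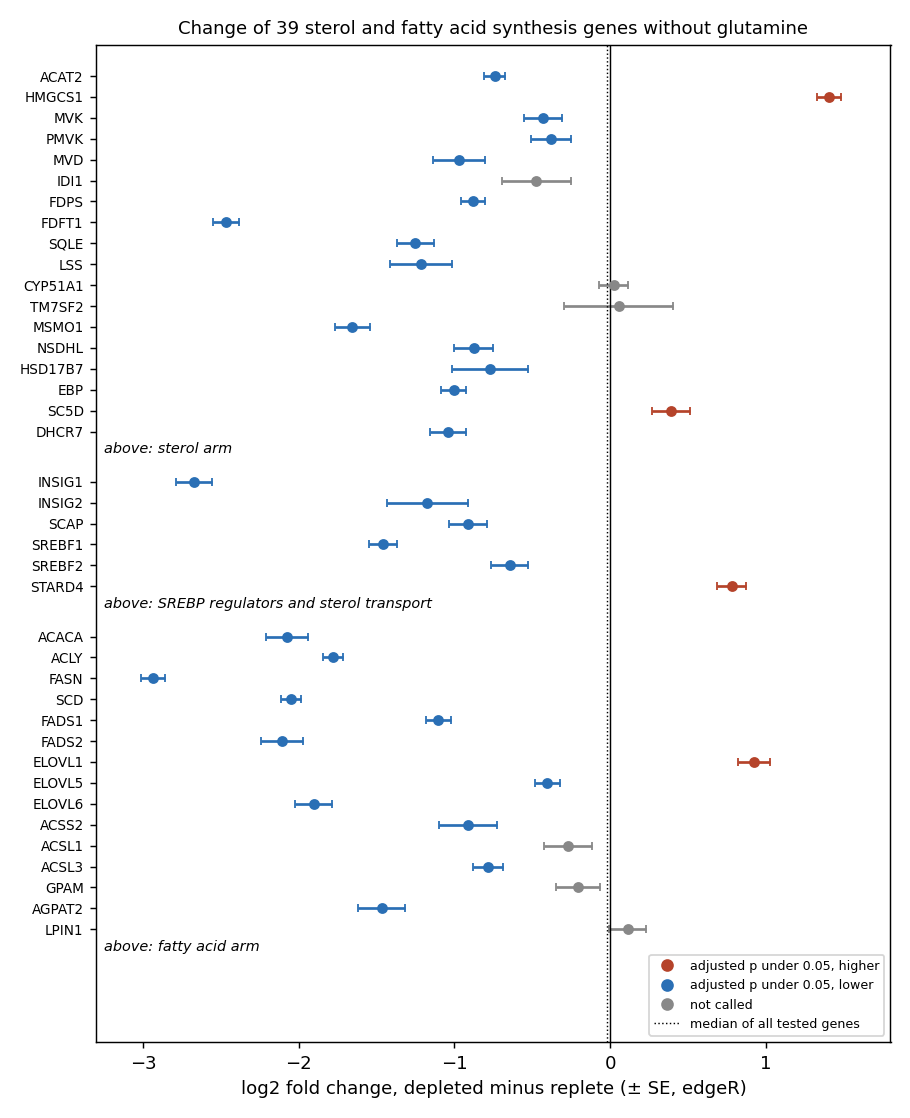
Log2 fold change of each of the 39 members (x axis, depleted minus replete, ± SE from edgeR), grouped by arm, with the dotted line at the median of all tested genes. Only ELOVL1, HMGCS1, SC5D and STARD4 passed the test to the right of 0, and FASN (−2.94), INSIG1 (−2.67) and FDFT1 (−2.47) lie farthest to the left.

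The arms shared the direction and differed in depth. In the fatty acid arm 11 of 15 genes were called lower and 1 higher, with a median log2 fold change of −1.10, and 8 of the 15 fell by more than 2-fold. In the sterol arm 13 of 18 genes were called lower and 2 higher, with a median of −0.83, and 6 of the 18 fell by more than 2-fold. The summed level of the fatty acid arm was 918, 866 and 878 CPM in depleted cells, against 3253, 3192 and 3145 CPM in replete cells. For the sterol arm the sum was 1078, 1045 and 1073 CPM in depleted cells, against 1741, 1668 and 1685 CPM in replete cells. Neither sum overlapped between groups, and the log2 ratio of group means was −1.85 for the fatty acid arm and −0.67 for the sterol arm. These ratios use library totals, unlike the medians, and with trimmed-mean factors they were −1.62 and −0.45 in that order. The ratio of the fatty acid sum to the sterol sum was 0.833 ± 0.0171 in depleted and 1.88 ± 0.0266 in replete libraries (SD, n = 3 each). With all members summed, the arm with the larger sum thus changed. These sums are led by a few genes and carry no test. Leaving out SCD and ACAT2, the most abundant member of each arm in replete cells, gave ratios of 0.810 ± 0.0399 in depleted and 1.72 ± 0.0385 in replete libraries (SD, n = 3 each). HMGCS1 alone made up 30.1 ± 1.58% of the sterol sum in depleted and 8.34 ± 0.386% in replete libraries (SD, n = 3 each), and without it the log2 ratio of the sterol sum was −1.07. Without HMGCS1 the sterol sum was 747, 748 and 736 CPM in depleted cells, below the fatty acid sum in each library. Without ACAT2 and FDPS it was 729, 674 and 737 CPM in depleted cells, also below the fatty acid sum. In both settings the fatty acid arm had the larger sum in depleted and in replete cells.

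**Figure D2:**
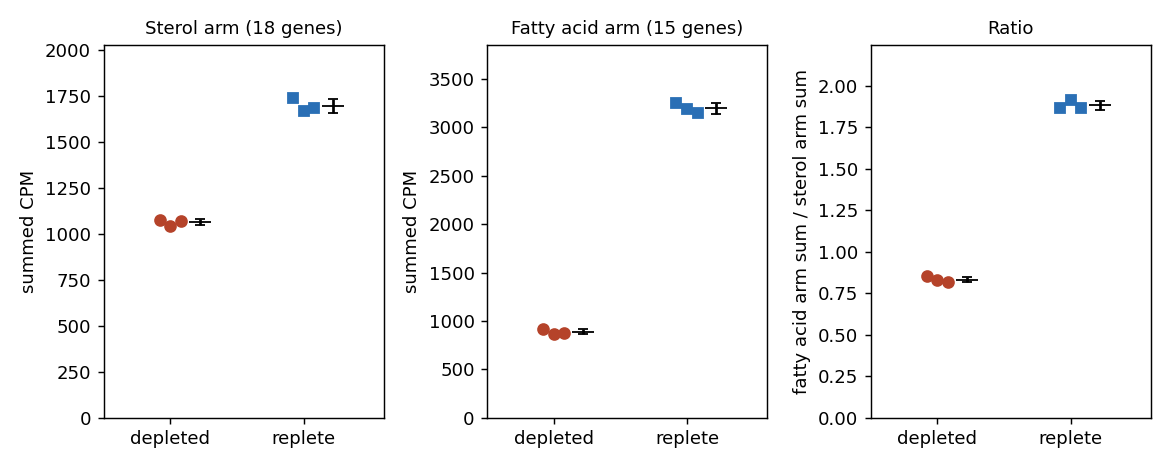
Summed CPM of the sterol arm, summed CPM of the fatty acid arm and the ratio of the second to the first (y axes, from 0) in each of the 3 depleted and 3 replete libraries, with mean ± SD beside the points. The fatty acid sum lies between 866 and 918 CPM in depleted and between 3145 and 3253 CPM in replete libraries. With all members summed, the ratio falls below 1 only in depleted libraries. Without HMGCS1, which is not drawn, the sterol sum of each depleted library is below its fatty acid sum.

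The entry to the mevalonate pathway split. ACAT2, the cytosolic thiolase that joins acetyl-CoA units, had 282, 299 and 265 CPM in depleted cells, against 563, 538 and 556 CPM in replete cells (log2 fold change −0.74, SE 0.07, edgeR adjusted p = 3.76e-07). HMGCS1, the HMG-CoA synthase that acts next, had 331, 296 and 336 CPM in depleted cells, against 151, 141 and 133 CPM in replete cells. The depleted libraries lay above all replete ones for HMGCS1 and below all of them for ACAT2, and the log2 fold change of HMGCS1 was 1.41 (SE 0.08, edgeR adjusted p = 2.23e-09). The exons of ACAT2 overlap those of SOD2 and of TCP1, a chaperonin gene, both on the opposite strand. Nothing states whether reads were counted by strand. SOD2 held 25.0% to 61.8% as many counts as ACAT2 and had a log2 fold change of 0.44. TCP1 held 109.7% to 113% of the counts of ACAT2 in every library and had a log2 fold change of −0.71, so the change of ACAT2 and that of TCP1 cannot be told apart.

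The kinases and the decarboxylase that turn mevalonate into isoprene units had small to moderate falls. MVK, mevalonate kinase, had 18.9, 23.5 and 20.8 CPM in depleted cells, against 32.8, 30.6 and 36.0 CPM in replete cells (log2 fold change −0.43, edgeR adjusted p = 0.00539). PMVK, phosphomevalonate kinase, had 23.7, 29.2 and 21.8 CPM in depleted cells, against 34.6, 41.8 and 37.6 CPM in replete cells (log2 fold change −0.38, edgeR adjusted p = 0.0155). For both kinases every depleted library lay below every replete one, but their calls were lost once each library was corrected for GC content and transcript length, at log2 fold changes of −0.03 for MVK (adjusted p = 0.800) and −0.01 for PMVK (adjusted p = 0.926). PMVK also lost its call when depleted replicate 3 (adjusted p = 0.0802) or replete replicate 2 (adjusted p = 0.0614) was left out, and over its alternatives its adjusted p ran from 6.92e-05 to 0.965. MVK also overlaps MMAB, a cobalamin enzyme gene on the opposite strand with 236% to 311% as many counts and a log2 fold change of −0.23. MVD, mevalonate diphosphate decarboxylase, had 5.50, 8.13 and 6.35 CPM in depleted cells, against 15.8, 15.7 and 14.04 CPM in replete cells (log2 fold change −0.97, SE 0.17, edgeR adjusted p = 0.000152).

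IDI1 and FDPS build the longer isoprenoids, and their libraries behaved differently. IDI1, the isomerase of isopentenyl diphosphate, had 54.0, 28.7 and 51.6 CPM in depleted cells, against 80.3, 64.5 and 73.8 CPM in replete cells. Depleted replicate 2 was the lowest of the 6 libraries, well under the other two depleted ones, the groups still did not overlap, and the gene did not pass (log2 fold change −0.47, edgeR adjusted p = 0.0887). IDI1 passed as lower in 8 of the 18 alternatives, 1 of them without depleted replicate 2, at −0.24 (adjusted p = 0.00862). The others were library totals alone, upper quartile factors, a mean CPM of at least 10, the replicate block, DESeq2, cyclic loess and the correction for GC content and length. Its adjusted p lay between 0.00264 and 0.607 under the alternatives. IDI2-AS1, which overlaps IDI1 on the opposite strand, held 0.196% to 26.7% as many counts and had a log2 fold change of 4.03. FDPS, farnesyl diphosphate synthase, had 66.0, 72.2 and 71.5 CPM in depleted cells, against 149, 150.4 and 152 CPM in replete cells (log2 fold change −0.88, SE 0.08, edgeR adjusted p = 2.52e-07). The antisense gene RUSC1-AS1 overlaps FDPS and held 97.8% to 99.4% of the FDPS count in every library, at a log2 fold change of −0.88, so reads of the pair cannot be told apart.

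The committed steps to sterol fell further. FDFT1, squalene synthase, had 23.3, 23.02 and 21.6 CPM in depleted cells, against 149.6, 146 and 144 CPM in replete cells (log2 fold change −2.47, SE 0.08, edgeR adjusted p = 3.58e-11), the deepest fall of the sterol arm. SQLE, squalene epoxidase and a rate-limiting step, had 15.2, 18.9 and 17.998 CPM in depleted cells, against 52.7, 46.1 and 45.8 CPM in replete cells (log2 fold change −1.25, SE 0.12, edgeR adjusted p = 4.47e-07). LSS, the cyclase that forms lanosterol, had 4.12, 5.04 and 3.11 CPM in depleted cells, against 12.3, 9.60 and 11.5 CPM in replete cells (log2 fold change −1.22, SE 0.20, edgeR adjusted p = 8.88e-05). No depleted library reached a replete one for any of these 3 genes, and LSS was the least abundant and had the widest relative spread of them.

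After lanosterol the genes parted. CYP51A1, the lanosterol demethylase, had 85.8, 67.1 and 77.0 CPM in depleted cells, against 89.9, 88.7 and 86.5 CPM in replete cells, and its log2 fold change of 0.02 did not pass (edgeR adjusted p = 0.835). Its depleted values lay just under the replete ones in CPM, and with library totals alone the log2 fold change was −0.20 (adjusted p = 0.0642), while limma-voom with cyclic loess called it lower at −0.23 (adjusted p = 0.0335), the lowest adjusted p of its alternatives, whose highest was 1.000. TM7SF2, a sterol reductase, was barely expressed at 1.37, 2.86 and 1.27 CPM in depleted cells, against 1.99, 2.15 and 1.99 CPM in replete cells, and at this depth no difference was detectable (log2 fold change 0.06, SE 0.35, edgeR adjusted p = 0.892). TM7SF2 overlaps VPS51 on the same strand, which fell by 1.65 on the log2 scale. MSMO1, the methyl sterol oxidase, had 23.4, 19.7 and 27.3 CPM in depleted cells, against 84.2, 86.3 and 89.4 CPM in replete cells (log2 fold change −1.66, SE 0.11, edgeR adjusted p = 1.86e-08). Every depleted library was far below every replete one for MSMO1, unlike the narrow gap seen for the demethylase before it.

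The enzymes that finish the sterol ring followed MSMO1 with 1 exception. NSDHL, a decarboxylating dehydrogenase that helps remove methyl groups from the ring, had 17.2, 22.6 and 17.7 CPM in depleted cells, against 44.9, 39.3 and 39.1 CPM in replete cells (log2 fold change −0.88, SE 0.13, edgeR adjusted p = 2.87e-05). HSD17B7, its partner ketoreductase, had 3.37 ± 1.05 CPM in depleted and 6.82 ± 1.27 CPM in replete cells (SD, n = 3 each, log2 fold change −0.77, edgeR adjusted p = 0.0109). HSD17B7 lost its call without replete replicate 1 (adjusted p = 0.0585) and in limma-voom with cyclic loess (−0.47, adjusted p = 0.0991). It also lost it in a test against a 1.5-fold change (glmTreat, adjusted p = 0.150), in a range of 0.00171 to 0.150 over the alternatives. Its transcribed pseudogene HSD17B7P2 held 31.1% to 62.5% as many counts, so its counts are uncertain. EBP, the sterol isomerase, had 80.0, 83.5 and 90.6 CPM in depleted cells, against 206, 198 and 193 CPM in replete cells (log2 fold change −1.01, SE 0.08, edgeR adjusted p = 6.75e-08). DHCR7, the reductase that ends one branch in cholesterol, had 15.9, 20.8 and 18.6 CPM in depleted cells, against 43.8, 44.1 and 45.3 CPM in replete cells (log2 fold change −1.04, SE 0.12, edgeR adjusted p = 2.61e-06).

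SC5D, the desaturase between EBP and DHCR7, went the other way. It had 25.4, 21.4 and 21.9 CPM in depleted cells, against 21.5, 18.8 and 21.2 CPM in replete cells. These ranges overlapped in CPM, and SC5D passed as higher relative to trimmed-mean scaling (log2 fold change 0.39, SE 0.12, edgeR adjusted p = 0.00955). With library totals alone it did not pass (0.16, adjusted p = 0.233), nor without replete replicate 2 (adjusted p = 0.0667) or with the correction for GC content and length (adjusted p = 0.175), in a range of 0.00110 to 0.974 over its alternatives.

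**Figure D3:**
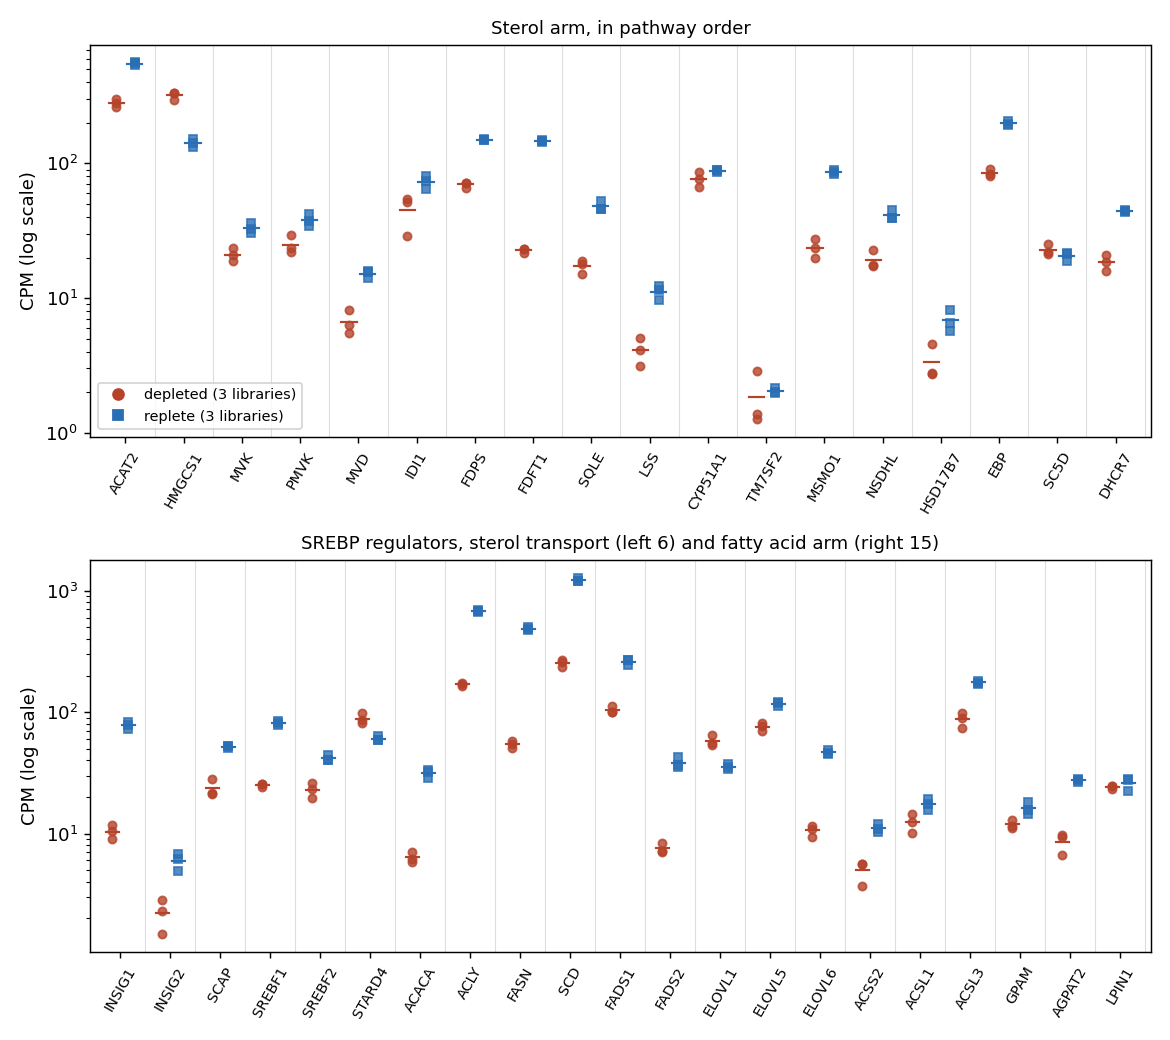
CPM of each member (y axis, log scale) in the 3 depleted libraries (circles) and the 3 replete libraries (squares), with a bar at each group's mean, the sterol arm in pathway order above and the regulators and the fatty acid arm below. HMGCS1, STARD4 and ELOVL1 have all circles above all squares, and only TM7SF2, SC5D and LPIN1 have overlapping groups.

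Of the genes that govern SREBP, all 5 fell, INSIG1 most. INSIG1, the sterol-sensitive retention factor, had 10.5, 8.93 and 11.7 CPM in depleted cells, against 72.0, 82.2 and 78.4 CPM in replete cells (log2 fold change −2.67, SE 0.12, edgeR adjusted p = 2.94e-10). INSIG2, its paralog, had 2.84, 1.49 and 2.31 CPM in depleted cells, against 4.87, 6.82 and 6.22 CPM in replete cells (log2 fold change −1.17, SE 0.26, edgeR adjusted p = 0.00110). Both were below every replete library in every depleted library, and INSIG2 was so low that its values rest on few counts, between 13 and 54 in a library. SCAP, the escort protein, had 21.4, 28.2 and 20.997 CPM in depleted cells, against 51.0, 52.2 and 52.3 CPM in replete cells (log2 fold change −0.91, edgeR adjusted p = 1.25e-05).

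The transcription factor genes fell unequally. SREBF1 had 24.2, 25.7 and 25.4 CPM in depleted cells, against 78.1, 80.6 and 83.7 CPM in replete cells (log2 fold change −1.46, SE 0.09, edgeR adjusted p = 7.36e-09). SREBF2 had 23.1, 26.0 and 19.5 CPM in depleted cells, against 44.3, 40.5 and 40.7 CPM in replete cells (log2 fold change −0.64, SE 0.12, edgeR adjusted p = 0.000235). The depleted libraries of SREBF1 spread over less than 2 CPM and lay far under the replete ones, and those of SREBF2 spread wider. SREBF2 did not pass a test against a 1.5-fold change (glmTreat, adjusted p = 0.214). Counts at the 3′ end do not separate the transcript forms of SREBF1 that start at different promoters. RAI1, which overlaps SREBF1 on the opposite strand, held 27.8% to 59.8% as many counts and also fell, at a log2 fold change of −0.76. STARD4, a soluble protein that carries sterol between membranes and is a known SREBP target, rose with 98.9, 81.0 and 85.6 CPM in depleted cells, against 59.4, 63.1 and 58.5 CPM in replete cells (log2 fold change 0.78, SE 0.09, edgeR adjusted p = 4.56e-06). Its antisense partner STARD4-AS1 held at most 3.36% as many counts in a library.

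In the fatty acid arm, the supply and synthesis steps fell together. ACLY, ATP-citrate lyase, had 174, 169.9 and 163 CPM in depleted cells, against 677, 692 and 668 CPM in replete cells (log2 fold change −1.78, SE 0.06, edgeR adjusted p = 5.51e-11). ACSS2, which makes acetyl-CoA from acetate, had 5.59, 5.61 and 3.69 CPM in depleted cells, against 10.97, 10.2 and 11.9 CPM in replete cells (log2 fold change −0.91, SE 0.19, edgeR adjusted p = 0.000571). ACACA, acetyl-CoA carboxylase and the committed step, had 6.23, 7.10 and 5.88 CPM in depleted cells, against 32.3, 33.6 and 28.9 CPM in replete cells (log2 fold change −2.08, SE 0.14, edgeR adjusted p = 1.54e-08). All depleted libraries were below all replete libraries for these 3 genes. FASN, the synthase that builds palmitate, had 54.8, 57.4 and 50.5 CPM in depleted cells, against 498, 486 and 475 CPM in replete cells (log2 fold change −2.94, SE 0.08, edgeR adjusted p = 4.06e-12), and fell furthest of the 39 members.

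The desaturases also fell. SCD, which makes oleate from stearate and was the most abundant member in replete cells, had 268, 235 and 257 CPM in depleted cells, against 1275, 1209 and 1199 CPM in replete cells (log2 fold change −2.05, SE 0.07, edgeR adjusted p = 2.45e-11). FADS2, the first desaturase of polyunsaturated fatty acids, had 7.05, 7.22 and 8.42 CPM in depleted cells, against 42.4, 35.0 and 36.8 CPM in replete cells (log2 fold change −2.11, SE 0.13, edgeR adjusted p = 1.01e-08). FADS1, the desaturase that follows it, had 99.7, 111 and 99.6 CPM in depleted cells, against 243, 269.8 and 269 CPM in replete cells (log2 fold change −1.10, SE 0.08, edgeR adjusted p = 4.19e-08). None of these overlapped between groups. FADS1 and FADS2 have exons that overlap on opposite strands, and FADS2 also overlaps FEN1, a nuclease gene, on the same strand, so part of their counts may be shared. FADS2 is the uncertain one, since FADS1 held 573% to 1544% and FEN1 529% to 1370.1% as many counts in a library, and FEN1 fell by 0.996 on the log2 scale.

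The elongases moved in both directions. ELOVL6, which extends palmitate to stearate, had 11.6, 9.28 and 10.96 CPM in depleted cells, against 45.9, 45.5 and 49.001 CPM in replete cells (log2 fold change −1.91, SE 0.12, edgeR adjusted p = 7.34e-09). ELOVL5, which extends polyunsaturated chains, had 81.7, 69.4 and 76.6 CPM in depleted cells, against 120.0, 119 and 113 CPM in replete cells (log2 fold change −0.40, SE 0.08, edgeR adjusted p = 0.000581). ELOVL1, which makes very long saturated chains for sphingolipids, had 53.6, 64.4 and 55.1 CPM in depleted cells, against 34.0, 37.5 and 35.2 CPM in replete cells (log2 fold change 0.92, SE 0.10, edgeR adjusted p = 2.59e-06). With a test against a 1.5-fold change (glmTreat), ELOVL5 did not pass (adjusted p = 1.000). ELOVL1 was higher and ELOVL5 and ELOVL6 lower in every depleted library than in every replete one.

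Among genes that activate fatty acids and pass them to glycerolipids, ACSL3 and AGPAT2 fell and ACSL1, GPAM and LPIN1 did not pass. ACSL3, a long-chain acyl-CoA synthetase of lipid droplets and the endoplasmic reticulum, had 97.5, 73.8 and 90.1 CPM in depleted cells, against 181, 170.1 and 175 CPM in replete cells (log2 fold change −0.78, SE 0.10, edgeR adjusted p = 6.01e-06), and AGPAT2, which makes phosphatidic acid, had 6.69, 9.39 and 9.69 CPM in depleted cells, against 28.4, 27.8 and 26.6 CPM in replete cells (log2 fold change −1.47, SE 0.15, edgeR adjusted p = 1.18e-06). ACSL1, another long-chain synthetase, had 12.4 ± 2.14 CPM in depleted and 17.5 ± 1.76 CPM in replete cells (SD, n = 3 each), and did not pass (log2 fold change −0.27, edgeR adjusted p = 0.119). GPAM, the mitochondrial acyltransferase that begins glycerolipid synthesis, had 11.9 ± 0.908 CPM in depleted and 16.1 ± 1.90 CPM in replete cells (SD, n = 3 each, log2 fold change −0.21, edgeR adjusted p = 0.191). LPIN1, a phosphatidic acid phosphatase and coactivator, had 24.1 ± 0.779 CPM in depleted and 26.1 ± 3.11 CPM in replete cells (SD, n = 3 each, log2 fold change 0.11, edgeR adjusted p = 0.394). The CPM of ACSL1 and GPAM did not overlap between groups, and both were called lower with library totals alone, at −0.50 for ACSL1 (adjusted p = 0.00966) and −0.44 for GPAM (adjusted p = 0.0130). Over the alternatives the adjusted p ran from 0.00949 to 1.000 for ACSL1 and from 0.0130 to 1.000 for GPAM. ACSL1 also passed without depleted replicate 1 (adjusted p = 0.0379).

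Genes around the pathway were called in both directions in 6 of 7 lists. Of 13 genes of SREBP processing and sterol-regulated degradation, 5 were higher and 5 lower (median −0.15), beside 39.1% and 39.4% of all genes. FBXW7, the ubiquitin ligase subunit that marks nuclear SREBP for destruction, had 119, 141 and 135 CPM in depleted cells, against 49.2, 54.7 and 55.0 CPM in replete cells (log2 fold change 1.54, edgeR adjusted p = 6.59e-09). C12orf49, now named SPRING1 and needed for SREBP cleavage, had 65.3, 82.0 and 69.6 CPM in depleted cells, against 23.4, 25.1 and 24.8 CPM in replete cells (log2 fold change 1.79, edgeR adjusted p = 7.24e-09). MBTPS1, the site-1 protease that cuts SREBP, had 21.6, 21.5 and 19.3 CPM in depleted cells, against 58.7, 63.7 and 57.6 CPM in replete cells (log2 fold change −1.30, edgeR adjusted p = 6.49e-08), and VCP, the segregase that extracts proteins from the endoplasmic reticulum, fell by 0.91 on the log2 scale. FBXW7 and C12orf49 were thus above, and MBTPS1 below, the replete range in every depleted library.

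Of 15 tested (19 listed) genes of sterol transport, esterification and the liver X receptors, 4 (26.7%) were higher and 7 (46.7%) lower (median −0.53). Over all genes the shares were 39.1% and 39.4%. NPC1, which exports cholesterol from lysosomes, had 90.3, 103 and 97.7 CPM in depleted cells, against 44.1, 38.0 and 44.4 CPM in replete cells (log2 fold change 1.43, edgeR adjusted p = 1.60e-08), and OSBPL2, an oxysterol-binding protein homologue, rose by 1.61 on the log2 scale. GRAMD1B, which moves cholesterol from the plasma membrane to the endoplasmic reticulum, had 14.2, 15.1 and 14.8 CPM in depleted cells, against 135, 141 and 137 CPM in replete cells (log2 fold change −3.002, edgeR adjusted p = 1.15e-11), and SOAT1, which esterifies cholesterol for storage, fell by 1.95 on the log2 scale. Of 9 other tested genes linked to SREBP, 6 (66.7%) fell and 0 rose in edgeR's test (median −0.41). Over all genes 39.4% fell and 39.1% rose. Of these 9 genes, 0 rose at an unadjusted p under 0.05 or in DESeq2 or limma-voom. In that list ALDOC, an aldolase, fell by 1.67 and C14orf1, now named ERG28 and a scaffold of sterol enzymes, fell by 1.04 on the log2 scale. THRSP, the tenth of that list, had too few counts to test, with 8 to 17 in depleted and 5 to 9 in replete libraries.

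Of 14 genes in branches that draw on the mevalonate pathway, 6 (42.9%) were higher and 5 (35.7%) lower (median 0.08), near the shares over all genes (39.1% and 39.4%). FNTA, a farnesyltransferase subunit, had 64.2, 66.7 and 60.2 CPM in depleted cells, against 20.5, 21.8 and 17.6 CPM in replete cells. Its log2 fold change was 1.90 (edgeR adjusted p = 3.06e-09), and COQ2, the prenyltransferase of ubiquinone synthesis, rose by 1.01 on the log2 scale. SRD5A3, of dolichol synthesis, fell by 1.38 on the log2 scale, and FNTB, the farnesyltransferase partner of FNTA, fell by 1.10 on the log2 scale. For the 13 other elongation and desaturation genes tested, 5 (38.5%) were higher and 6 (46.2%) lower (median −0.42), beside 39.1% and 39.4% of all genes. ELOVL7, a very-long-chain elongase, had 8.80, 7.56 and 5.65 CPM in depleted cells, against 0.886, 0.631 and 1.32 CPM in replete cells (log2 fold change 3.18, edgeR adjusted p = 5.13e-07), HACD1, a dehydratase of the elongation cycle, rose by 0.93 on the log2 scale and HACD3, a related dehydratase, fell by 1.28 on the log2 scale. SCD5, the second human stearoyl-CoA desaturase, had 0.825, 1.15 and 0.923 CPM in depleted cells, against 13.5, 12.5 and 13.4 CPM in replete cells (log2 fold change −3.54, edgeR adjusted p = 6.86e-09), the same direction as SCD.

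Of 13 other glycerolipid genes tested, 4 (30.8%) were higher and 5 (38.5%) lower (median −0.17), beside 39.1% and 39.4% of all genes. The lipin genes, which encode phosphatidic acid phosphatases, went separate ways, with LPIN2 at 25.0 ± 2.28 CPM in depleted and 10.2 ± 1.51 CPM in replete cells (log2 fold change 1.53, edgeR adjusted p = 5.11e-07) and LPIN3 at 5.74 ± 0.478 CPM in depleted and 26.2 ± 3.14 CPM in replete cells (SD, n = 3 each, log2 fold change −1.96, edgeR adjusted p = 6.21e-08), beside LPIN1, which did not pass. PLIN2, a coat protein of lipid droplets, rose by 0.67 on the log2 scale, and AGPAT3, an acyltransferase, fell by 1.03 on the log2 scale. Among 23 fatty acid oxidation genes, 7 (30.4%) were higher and 12 (52.2%) lower (median −0.49), beside 39.1% and 39.4% of all genes. HADH, the short-chain hydroxyacyl-CoA dehydrogenase, had 5.77, 3.21 and 5.88 CPM in depleted cells, against 91.3, 87.5 and 96.8 CPM in replete cells (log2 fold change −3.97, edgeR adjusted p = 1.30e-10), and ECI2, an enoyl-CoA isomerase, fell by 2.13 on the log2 scale. ETFA and HADHB, an electron carrier subunit and a subunit of the trifunctional protein, rose by 0.63 (ETFA) and 0.70 (HADHB) on the log2 scale.

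**Figure D4:**
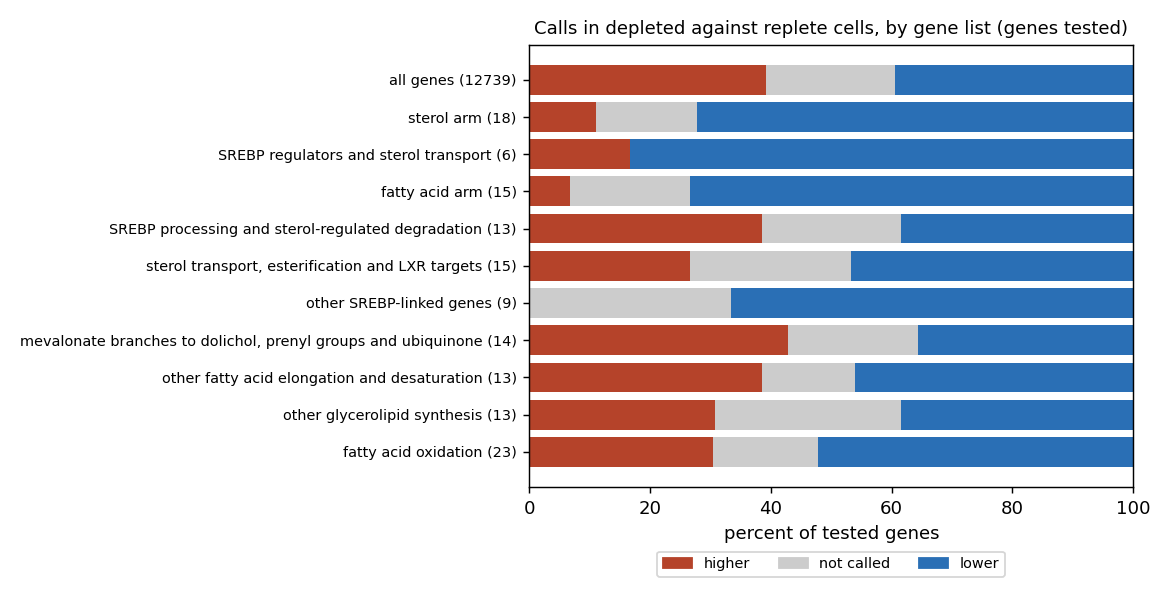
Share of tested genes (x axis, percent) called higher (left segment), not called (grey) and called lower (right segment) in depleted against replete cells, for all genes, the 3 groups of members and 7 lists of neighbouring genes, with the number tested in brackets. The sterol arm (13 of 18 lower), the regulators (5 of 6) and the fatty acid arm (11 of 15) have a longer lower segment than all genes (39.4%), and fatty acid oxidation has 12 of 23.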

How the data were processed

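RNA of 3 glutamine-depleted and 3 glutamine-replete H460 libraries, 500 ng of total RNA each, went into QuantSeq 3′ libraries, per the labels. Each deposited file holds the raw counts of 1 library by gene symbol, whole numbers with their own total. Bowtie2, edgeR and hg19 are named in the submitters' processing notes with no role or version. The counting tool, its annotation and its handling of strand are not given in the sources used here. Counts of the 286 symbols on several of the 25737 entries were summed, and no member was among them.

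Genes kept by filterByExpr (minimum count 10, minimum total 15) were scaled by trimmed-mean factors (0.917 to 0.929 in depleted, 1.08 to 1.09 in replete libraries). The main test was the robust quasi-likelihood test (edgeR 4.0.16, R 4.3.3), two-sided, with Benjamini-Hochberg adjustment over all genes and a threshold of 0.05. CPM uses library totals. A count of 0 allows up to 3 counts, or 0.275 to 0.397 CPM, for counting error only. Overlapping genes come from GENCODE 29, whose build differs from hg19, so no gene positions are given. The members and lists were chosen with earlier results of these data known, so no list was given a p-value. All 39 members are named, and up to 2 genes with the smallest p in each direction from each of 7 neighbouring lists. Alternatives were RLE size factors, library totals with no further scaling, upper quartile factors, tests without the filter on counts or on genes averaging 10 CPM or more, a replicate block, DESeq2 1.42.0, limma-voom (limma 3.58.1) with and without cyclic loess, glmTreat against 1.5-fold, the largest entry per symbol and leaving out each library. Added after seeing the data were a correction of each library for GC content and transcript length by loess (span 0.5, both known for 94.3% of genes), and leaving out ACAT2 and FDPS, or HMGCS1. Simulated counts of these libraries, with 12619 genes tested, were used to test the edgeR step. It called 85.3% of the 95 genes with a planted log2 change of 1 and 100% of the 103 with one of 2. Of its 195 calls, 11 were false. Few genes were changed in the simulation, and every gene had the same dispersion. In the data 78.6% of tested genes were called and the scaling factors differed by group, a setting the simulation did not try. Tables were made with Python 3.11.15 and pandas 2.3.3.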

Additional observations from a re-analysis of the deposited data

How the results depend on the processing

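The counts of members called, 4 higher and 29 lower, stayed within 1.5 times over every alternative run, at 3 or 4 higher and 24 to 32 lower. For 29 of the 39 members the call was the same in every refit that tested them, which was 18 refits, or 17 for LSS, INSIG2, ACSS2 and TM7SF2, too low for the limit on mean CPM. Of these, TM7SF2 and LPIN1 were not called in any refit and their sign varied. SREBF2 (adjusted p = 0.214) and ELOVL5 (adjusted p = 1.000) lost their call with glmTreat and held it elsewhere. MVK (adjusted p = 0.886), PMVK (adjusted p = 0.965), SC5D (adjusted p = 0.974) and HSD17B7 (adjusted p = 0.150) lost it with glmTreat and in at least 1 other refit. CYP51A1, which did not pass, was called at −0.23 with cyclic loess, against 0.02. With library totals alone, upper quartile factors, glmTreat or the correction for GC content and length, 1 sterol gene was higher. The sterol median was −1.05 with library totals, −1.04 with upper quartile factors, −0.98 at a mean CPM of at least 10 and −0.72 with that correction, and the fatty acid median was −1.33, −1.31, −1.39 and −0.93 in that order, and −1.36 with cyclic loess, so the fatty acid median was the lower one in each. The log2 ratio of the sterol sum was −0.45 with trimmed-mean factors, −0.55 without ACAT2, −0.48 without ACAT2 and FDPS and −1.07 without HMGCS1, and that of the fatty acid sum was −1.62 with trimmed-mean factors and −1.64 without SCD. Without ACAT2 and FDPS, 11 of the sterol genes were lower. With glmTreat, 3324 genes of all were higher. Also with glmTreat, SREBP processing had 2 lower, mevalonate branches 3 lower, other elongation genes 3 higher, other glycerolipid genes 1 higher and 3 lower, and oxidation genes 1 higher. At a mean CPM of at least 10, other SREBP-linked genes had 3 lower, mevalonate branches 3 lower, other elongation genes 3 higher and 2 lower, and oxidation genes 4 higher. Oxidation genes also had 4 higher with library totals or upper quartile factors, mevalonate branches had 3 lower with cyclic loess, and 1 other SREBP-linked gene was higher without a count filter or with that correction. Leaving out 1 library gave 1 to 2 sterol genes higher, a sterol median from −0.89 to −0.75, 0 to 1 other SREBP-linked genes higher and 3 to 5 mevalonate branch genes lower. glmTreat tests against a stricter null hypothesis, and for the other changes the cause was not tested. Same-numbered libraries correlated at 0.12, 0.01 and 0.04 in their deviations, and not every library correlated best with its own number. Deviations from a mean of 3 libraries cannot decide whether the replicate numbers of the labels pair the libraries. With the replicate block, 4 members were higher and 30 lower. Depth limits TM7SF2, HSD17B7 and INSIG2, which had few counts.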
